A study of Homo sapiens with 2 samples.

Results

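Bright windows enriched in the GATA1 pull-down were chosen from promoter arrays hybridised with chromatin of Meg-01 cells, a human megakaryoblastic leukemia line. A window was 3 neighbouring genomic probes, with both outer probes within 1000 bp of the centre probe. A window was a member when its mean log2 ratio of the GATA1 pull-down over IgG, with the median of its array set to 0, was at least 1.585 (3-fold) and when the mean log2 intensity of both channels lay among the brightest 25% of windows of that array. In all, 716 of 415409 windows met both conditions, which was 0.689% of the 103853 bright windows. Of these, 402 were on the first array (labelled chIP1) and 314 on the second (chIP2). Members less than 1000 bp apart were joined into 472 regions, 261 and 211 on the arrays, which named 527 genes and left 3 regions without a gene name.

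The series holds 2 arrays with different probes, which together tile the promoters of the human genome, so each probe was measured in 1 hybridisation. On both arrays the sample in the red (Cy5) channel was DNA precipitated from formaldehyde-fixed, untreated Meg-01 chromatin with the goat GATA1 antibody C-20, and the sample in the green (Cy3) channel was DNA precipitated with normal goat IgG. Both were amplified through ligated linkers before labelling, and the dyes were not swapped. With 1 hybridisation per probe there is no replicate, so no p-value is given and a dye effect cannot be told apart from enrichment. Values are log2 ratios of pull-down over IgG unless another scale is named, and an error given as an interval covers counting error only. Members overlap their neighbours, so member windows of 1 region share probes.

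GATA1, a zinc finger protein that regulates transcription, is a factor that red cell precursors and megakaryocytes need to mature. It binds short DNA words built around the letters GATA, often next to sites of partner factors such as TAL1, and it acts from promoters as well as from distant enhancers. Among the genes it is known to bind are those of hemoglobin and heme production, of red cell and platelet membrane proteins, and of the transcription factors GATA2, TAL1, NFE2 and GATA1 itself. In a ChIP-on-chip experiment the sheared fragments are longer than the probe spacing, so neighbouring probes can report the same bound fragment.

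The promoters below belong to genes with a member window within 500 bp of the start, and need not hold the DNA of that window. They are the 250 bases before the RefSeq start (GRCh38.p14), read 5′ to 3′ on the strand of the gene. The array coordinates further on are as the files give them, in a build that is not given in the sources used here, so they cannot be set beside these. Capitals mark GATA letters on either strand, which here are the word AGATAA, its variant AGATAG, the word TGATAA and its variant TGATAG. H3-3B and HNRNPC stand for the regions with high ratios, COPE for the brightest, CPOX for heme synthesis, TPR for the genes the study tabulated, and GATA1 for the factor itself. COPE and CPOX were picked after their values and letters were seen.
H3-3B, chr17:75779780-75780029, minus strand: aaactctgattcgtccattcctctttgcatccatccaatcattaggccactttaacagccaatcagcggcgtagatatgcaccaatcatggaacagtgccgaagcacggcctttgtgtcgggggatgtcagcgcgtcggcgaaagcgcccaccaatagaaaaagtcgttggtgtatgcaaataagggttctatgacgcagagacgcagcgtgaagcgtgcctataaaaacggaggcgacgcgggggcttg
HNRNPC, chr14:21269443-21269692, minus strand: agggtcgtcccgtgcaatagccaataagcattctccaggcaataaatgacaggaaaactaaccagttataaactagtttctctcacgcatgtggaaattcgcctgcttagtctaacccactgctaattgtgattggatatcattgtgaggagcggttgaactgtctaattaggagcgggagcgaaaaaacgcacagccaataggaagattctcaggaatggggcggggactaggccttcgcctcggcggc
COPE, chr19:18919388-18919637, minus strand: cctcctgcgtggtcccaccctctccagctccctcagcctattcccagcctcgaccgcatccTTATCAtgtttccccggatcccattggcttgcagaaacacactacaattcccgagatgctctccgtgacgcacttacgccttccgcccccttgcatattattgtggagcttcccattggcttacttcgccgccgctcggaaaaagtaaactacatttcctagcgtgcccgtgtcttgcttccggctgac
CPOX, chr3:98593612-98593861, minus strand: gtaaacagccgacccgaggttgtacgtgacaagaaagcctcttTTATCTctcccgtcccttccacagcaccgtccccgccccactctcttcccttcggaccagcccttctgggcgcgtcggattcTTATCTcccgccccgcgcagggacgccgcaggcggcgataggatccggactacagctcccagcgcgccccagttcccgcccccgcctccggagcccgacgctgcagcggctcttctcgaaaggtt
TPR, chr1:186375254-186375503, minus strand: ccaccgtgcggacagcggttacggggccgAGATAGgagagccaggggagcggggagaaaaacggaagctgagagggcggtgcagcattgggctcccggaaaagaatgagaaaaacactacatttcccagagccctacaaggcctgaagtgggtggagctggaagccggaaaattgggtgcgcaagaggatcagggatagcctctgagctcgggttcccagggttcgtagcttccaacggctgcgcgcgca
GATA1, chrX:48786340-48786589, plus strand: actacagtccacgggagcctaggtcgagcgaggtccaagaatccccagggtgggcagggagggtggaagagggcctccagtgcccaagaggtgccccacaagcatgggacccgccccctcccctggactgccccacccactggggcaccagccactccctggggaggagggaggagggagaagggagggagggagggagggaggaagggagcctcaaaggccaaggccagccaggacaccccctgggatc
CPOX held the GATA letters at 2 places, with first letters 207 and 125 bases before the start. COPE held them once, 189 bases before the start, and TPR once, 221 bases before it. The H3-3B, HNRNPC and GATA1 promoters held none of these letters in this stretch. By the array's annotation the GATA1 member region began 218 bp past the start, so outside the printed bases.

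Over all such promoters the GATA letters were about as frequent in members as in other bright promoters. Of 271 RefSeq genes with a member window within 500 bp of the start, 228 (84.1%) had a sequence in the table, and 40 of these (17.5%) held at least 1 of the 4 words between 250 bases before and 50 bases after the start. The share was 15.7% in 7660 other genes with a bright window at the start, 18.7% in the 12581 genes with any window at the start, and 25.5% in all 27305 RefSeq promoters. The share falls as GC content rises, so it was also read within GC classes. Between 60 and 70% GC the letters were in 18 of 128 member promoters (14.1%) and in 12.1% of the other bright promoters, and between 50 and 60% GC in 16 of 65 (24.6%) and 25.4%. GC content was 62.0% ± 7.15 (SD over 228 promoters) in members and 63.7% ± 9.46 in the other bright promoters. The letters GGGCGG, bound by SP1-type factors, were in 63.6% of member promoters and 66.9% of the others (44.6% of all RefSeq promoters), and CANNTG, the E-box bound by TAL1-type factors, in 56.6% and 62.1% (68.9% of all).

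Other words differed more between these sets. Each of the 2080 words of 6 letters (either strand counted) was compared, and the words named here were chosen after their differences were seen. CCAAT, with 5 letters, was counted apart from them but is not independent of them. It is part of CCAATC and GCCAAT, whose differences ranked 4th and 7th of the 2080 words. CGGAAG, the core of sites for ETS factors such as GABPA, was in 108 of 228 member promoters (47.4%), in 32.6% of the other bright promoters and in 19.9% of all RefSeq promoters. By array the shares were 50.4% against 30.8% on chIP1 and 43.6% against 34.3% on chIP2, which are parts of the pool on which the word was chosen. AACTAC was in 18.4% of member promoters and 7.43% of the others (7.31% of all RefSeq promoters). In the other direction, CCCTGC was in 27.6% of member promoters and 40.1% of the others, CCGGCG in 27.2% and 39.3%, and CCTGCC in 28.5% and 39.96%. CCAAT, the letters bound by NF-Y, was in 114 of 228 member promoters (50%), 37.4% of the others and 35.7% of all RefSeq promoters. By the same measure AGATAA ranked 987th of the 2080 words. The printed HNRNPC and H3-3B promoters hold CCAAT on the upper strand, and the COPE promoter holds AACTAC.

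Members stood on the pull-down side of the bright windows, whereas most dim windows past 3-fold stood on the IgG side. Turning the sign of the rule gave 125 bright windows at 3-fold or more toward IgG, 0.12% of the bright windows, in 100 regions. The pull-down side therefore held 85.1% of bright windows past 3-fold, 86.1% on chIP1 and 84.0% on chIP2. Among the other windows past 3-fold it held 6730 of 18000, or 37.4%. Over all intensities, 7446 windows passed 3-fold toward the pull-down and 11395 toward IgG. The balance of sides depended on how brightness was taken: with the brightest 25% by the IgG signal alone, 281 windows passed 3-fold toward the pull-down and 1324 toward IgG. The centre of the bright windows itself lay above 0, with a median of 0.19 on chIP1 and 0.15 on chIP2, and the spread of bright windows was narrower (SD 0.56 and 0.53) than that of all windows (0.77 and 0.76).

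**Figure D1:**
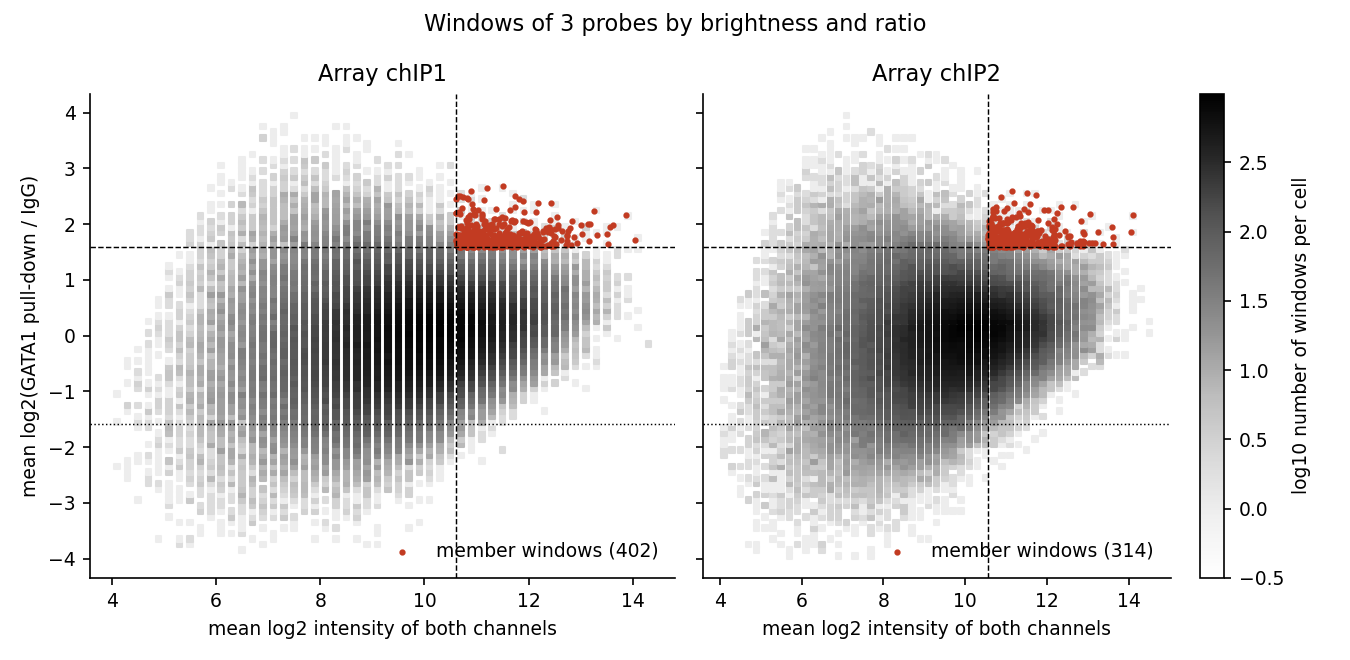
Each window by the mean log2 intensity of both channels (x axis) and the mean log2 ratio of the GATA1 pull-down over IgG (y axis), one panel per array, with grey for the number of windows per cell (log10 scale) and red for members. The dashed lines mark the intensity and ratio limits of the rule and the dotted line its mirror toward IgG; the 716 members lie in the upper right, where windows extend farther up than down.

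The values behind the rule were as follows, as a description. Member means ran from 1.59 to 2.69, with a median of 1.75, and 80 of the 472 regions had a window of 4-fold or more. Just inside the ratio limit were windows at NOL8, MAPBPIP/UBQLN4, AZI2, FAM79A and MAGEF1, all at 1.59, and just outside were ALDH3A2, NRXN2, PDCD8, GDF15 and FAM98A, all at 1.58. The step across the limit is small beside the gap between the highest and the lowest of the 3 probes of a member window, which had a median of 0.98. All 3 probes were at 2-fold or more in 514 member windows (71.8%), 140 had all 3 at 3-fold or more, and 2 had a probe below 0. No member window held a saturated spot.

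The members were strong in the pull-down and less so in IgG, as the rule requires. Their pull-down signal had a median rank of 97.3% among the windows of the array, and the IgG signal a median rank of 68.9%, with a range of 34.9 to 100.0%. In scanned signals before any correction, member probes on chIP1 had medians of 1462 for the pull-down and 477 for IgG, whereas negative control spots had 342 and 303. On chIP2 the medians were 1442 and 526, with 340 and 303 in the control spots. In 281 member windows (39.2%) the IgG signal alone was also among the brightest 25%.

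Most regions were short. Their median width was 440 bp and the range 250 to 1559 bp, 287 regions held 1 window, 185 held 2 or more and 46 held 3 or more. The ratio fell with distance from the region. Single probes up to 250 bp outside had a median of 0.72 (840 probes), at 250 to 500 bp 0.33, at 500 to 1000 bp 0.17, and at 1000 to 2000 bp 0.00. The first value is partly fixed by the rule, since a probe beside a region may neighbour a member window. Beside the mirrored IgG-side regions the medians were -0.82, -0.15, 0.02 and -0.03 over the same distances.

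**Figure D2:**
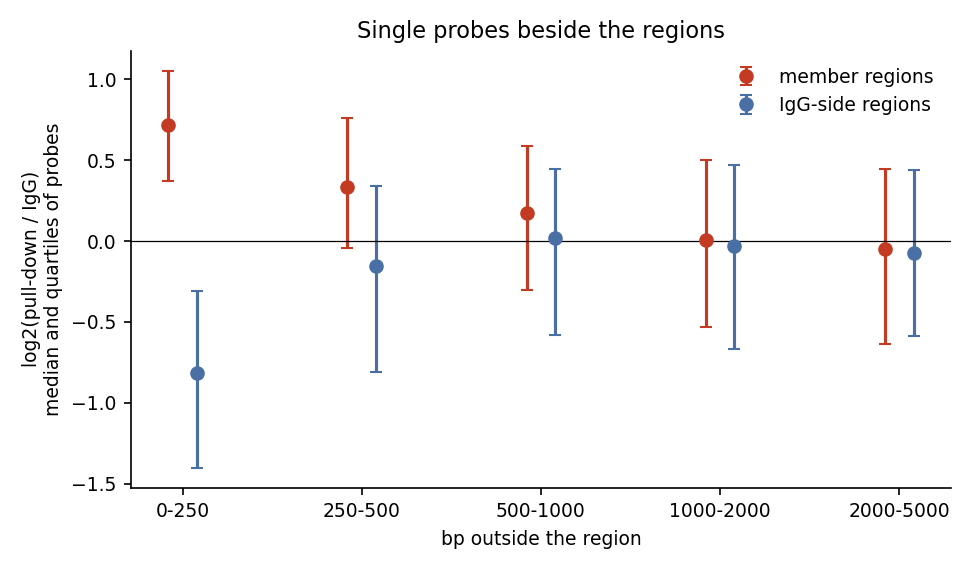
Single probes outside the regions, by distance from the region's edge in bp (x axis) and log2 ratio of pull-down over IgG (y axis), with points for medians and bars for quartiles over probes, red for the 472 member regions and blue for the 100 regions toward IgG. Beside member regions the median falls from 0.72 to 0.00 over 2000 bp, and beside the IgG-side regions it is near 0 from 500 bp on.

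Member windows gathered at gene starts, a feature that the rule did not use. The centre probe was within 500 bp of an annotated start in 407 of 716 member windows (56.8%, exact binomial 95% interval 53.1 to 60.5%). The share was 30.2% in all bright windows, 19.3% in all windows, 16.3% in the dimmer windows at 3-fold toward the pull-down and 8.00% (3.90 to 14.2%) in the bright windows toward IgG. It was 58.7% on chIP1 and 54.5% on chIP2. Counted once per region, at its highest window, it was 255 of 472 (54.0%, 49.4 to 58.6%), against 9 of 100 regions toward IgG. The 500 bp just upstream of a start had the highest yield, where 236 of 14406 bright windows (1.64%) were members, followed by the 500 bp downstream, with 171 of 16938 (1.01%). A smaller rise lay between -4500 and -4000 bp, with 13 of 1664 bright windows (0.781%), where 8 bright windows (0.481%) passed 3-fold toward IgG. Divergent promoters, which serve genes on both sides, made up 8.52% of member windows and 3.81% of bright windows. Windows farther than 2000 bp from a start made up 12.3% of members and 26.0% of bright windows.

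**Figure D3:**
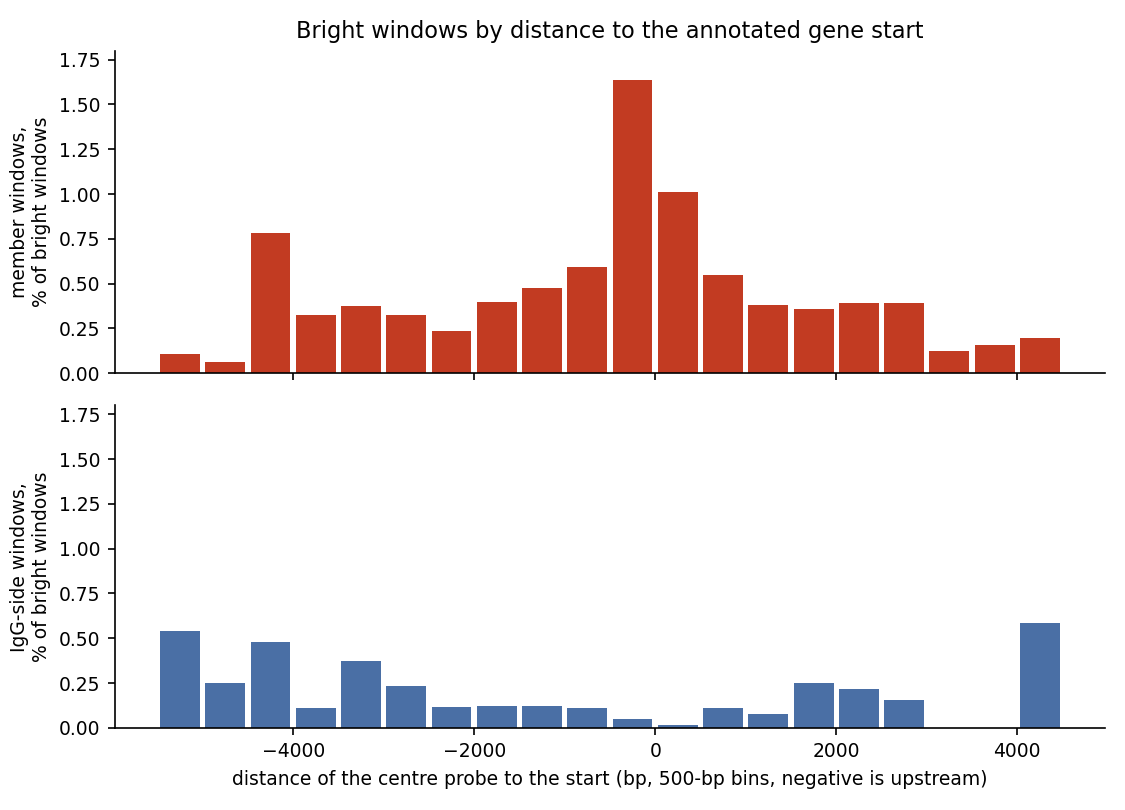
Share of bright windows that are members (upper panel, red) or that pass 3-fold toward IgG (lower panel, blue), by the distance of the centre probe to the annotated gene start in bins of 500 bp, for bins with at least 500 bright windows. Members peak in the bin just upstream of the start at 1.64%, where the IgG-side share is 0.0486%.

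Across chromosomes the share of bright windows that were members ran from 0.169% on Y (1 window) and 0.173% on 21 to 1.34% on X. Brightness itself differed widely, from 9.5% of windows on X to 54.8% on chromosome 19, and its part in these shares was not tested. On chromosome 19, 53 of 11430 bright windows were members (0.464%), and on chromosome 7, 42 of 3657 (1.15%).

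The highest regions lay at genes of varied function. The region with the highest window of all lay in HMGB2, which encodes a DNA-bending chromatin protein (chr4:174629506-174630639, 4 member windows). Its highest window was 177 bp inside the gene, with probes at 2.39, 3.23 and 2.45 and a mean of 2.69, which is 6.46-fold. Next came C1QTNF2, a secreted protein related to complement C1q, with probes at 2.08, 3.69 and 2.15 in a window 417 bp upstream. H3F3B (now H3-3B), one of the genes for histone variant H3.3, had probes at 2.45, 2.92 and 2.41 in a window 223 bp upstream (chr17:71287304-71287934). In all of these regions the middle probe was the highest of the 3. PNRC1, a nuclear receptor coregulator, had a less even window, at 1.06, 3.65 and 3.05.

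Several regions lay between or beside neighbouring genes. The divergent pair C14orf10/KIAA0391 (now PPP2R3C, a protein phosphatase 2A subunit, and PRORP, the nuclease of mitochondrial RNase P) had 6 member windows over 1044 bp, with probes at 2.76, 2.63 and 2.31 at the top (chr14:34660706-34661749). KIF9/KLHL18, a kinesin and a ubiquitin ligase adaptor, had 4, with 2.05, 2.89 and 2.57. LOC51057/MDH1 (now WDPCP, a protein of planar polarity and cilia, and the cytosolic malate dehydrogenase) also had 6, at a lower mean of 1.91. Regions with 4 member windows further included IL1RL1, the receptor of interleukin 33, with a highest mean of 2.24, ANKHD1 with 2.13 and PPP1R15A, a stress-induced phosphatase 1 subunit, with 2.06. Of all regions, 60 named 2 or more genes, and for these the array cannot tell which gene the signal belongs to.

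Among the 20 highest regions with at least 2 member windows, the others had means between 2.27 and 2.51. NCE2 (UBE2F), a NEDD8-conjugating enzyme, had 2.51, and SSFA2 (ITPRID2), which interacts with inositol trisphosphate receptors, had 2.5. The mitochondrial sirtuin SIRT4 had 2.49, the vesicle GTPase RAB3C 2.47 and the lamin B receptor LBR 2.45. C1orf116 held 2 separate regions far inside the gene, 11435 and 8082 bp past its start, with means of 2.42 and 2.38. The protease RCE1, which processes prenylated proteins, had 2.37, and DAXX, a chaperone of histone H3.3, had 2.37 with probes at 2.34, 2.67 and 2.11. Lower in the list were TCP11L2 with 2.31, the RNA-binding protein HNRPC (HNRNPC) with 2.31, the mTORC2 subunit PRR5 with 2.30, the peroxisomal enzyme HSD17B4 with 2.27 and SH3BP5L with 2.27. Apart from C1orf116 and NCE2, at 1470 bp, these windows lay between -939 bp (TCP11L2) and 858 bp (RCE1) of a start, where negative distances are upstream.

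The brightest member windows, where both channels were high, were at COPE/DDX49, a coatomer subunit and an RNA helicase that share a divergent promoter (probes at 2.08, 2.36 and 2.04, intensity 14.1 on the log2 scale), UNQ6411 (C2orf66) with a mean of 1.71, the splicing and mediator-associated protein THRAP3 with 2.16, TRIP10 with 1.65 and the autophagy protease ATG4C with 1.99. Correcting the ratio for intensity within each array (loess) lowered UNQ6411, TRIP10 and ATG4C below the 3-fold limit.

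**Figure D4:**
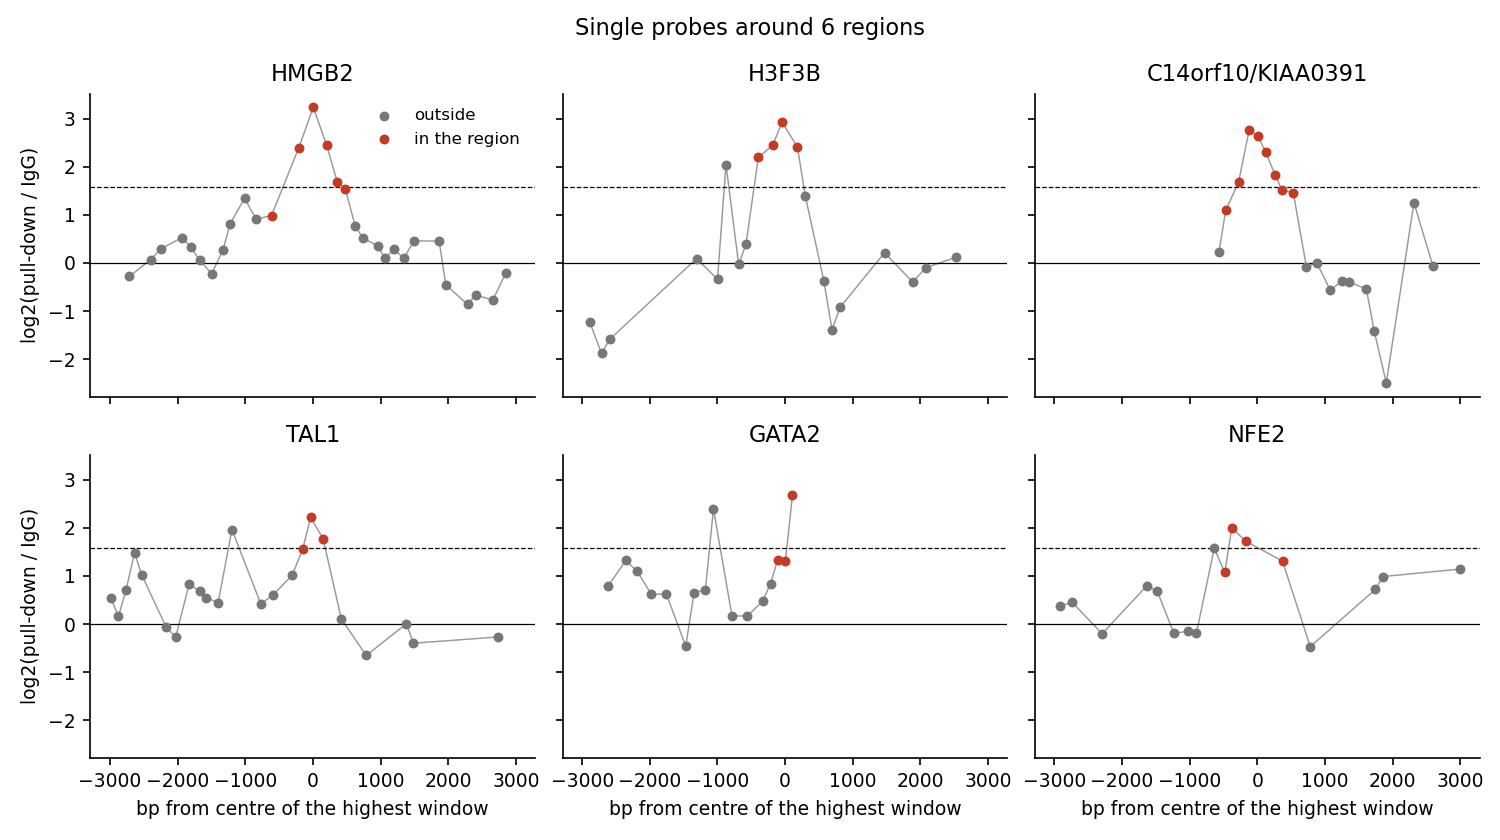
Log2 ratio of pull-down over IgG (y axis) at single probes within 3000 bp of the centre of the highest window (x axis, bp) for 6 regions, with red for probes inside the region, grey for probes outside and a dashed line at 3-fold. The probes of HMGB2, H3F3B and C14orf10/KIAA0391 rise to 3.23, 2.92 and 2.76, TAL1 and NFE2 peak lower, and the GATA2 region rests on 1 probe at 2.68; single probes outside the regions also pass the line at H3F3B (2.04), TAL1 (1.96) and GATA2 (2.39).

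Of 37 known GATA1 target genes with a window, 5 held a member window (13.5%), against 3.01% of all 17483 genes with a window. Of the 33 with a bright window the share was 15.2%, against 3.73% of all 14125 such genes. With the ratio limit at 2-fold 17 known targets held a bright enriched window, beside 3351 of the 17483 genes. At 4-fold none did, beside 85 of all genes, a share at which a list of 37 can easily hold none. The list was drawn from general knowledge of red cell and platelet genes. Of 28 genes of unrelated tissues, of which 21 had a bright window, none held a member window. Neither did any of 305 olfactory receptor genes, of which 61 had a bright window. At the 3.73% of all genes with a bright window, lists with so few such genes would hold few members or none. These counts therefore cannot show a difference from all genes. Members of the known target list were all transcription factor genes other than F2RL3.

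TAL1, the partner of GATA1 in erythroid complexes, had 1 member window at -2655 bp from its start, where a minus sign stands for upstream, with probes at 1.55, 2.22 and 1.78 (chr1:47409978-47410325). GATA2, which GATA1 replaces during maturation, had 1 window at -4557 bp, with probes at 1.33, 1.30 and 2.68 (chr3:129699147-129699413). NFE2, a factor of platelet formation, had 2 windows, the higher 293 bp upstream with probes at 2.00, 1.72 and 1.31 (chr12:52975761-52976673). GATA1 itself had 1 window 404 bp inside the gene, with probes at 1.19, 1.18 and 2.52 (chrX:48401427-48401756). F2RL3, the thrombin receptor PAR4 of platelets, had 1 window 28 bp upstream with probes at 1.66, 1.85 and 1.49. In GATA1 and GATA2 a single probe carried the window, and the other 2 probes were between 1.18 and 1.33. After loess correction TAL1 (1.72) and GATA2 (1.63) stayed at or above 3-fold, whereas NFE2 (1.52), GATA1 (1.49) and F2RL3 (1.40) fell below.

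The remaining known targets had no member window. The highest bright windows among them were EPB42, a red cell membrane protein, at 1.58, the beta globin gene HBB at 1.5, the erythroid factor KLF1 at 1.49, the anion exchanger SLC4A1 at 1.46 and the platelet integrin ITGA2B at 1.44. HBG2, PF4, PPBP and SELP had no bright window at all, so the rule could not have chosen them. VWF had a window at 2.51 that was not bright. BCL2L1, which encodes the survival protein Bcl-xL, had 20 bright windows, with the highest at 0.68. By other assays, the paper reports GATA1 at this promoter in Meg-01 cells (ChIP followed by PCR) and its activation by GATA1 in a luciferase assay. The region at HDAC6, a cytoplasmic deacetylase, lay 13561 bp from the GATA1 start, with probes at 2.65, 2.25 and 1.87.

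**Figure D5:**
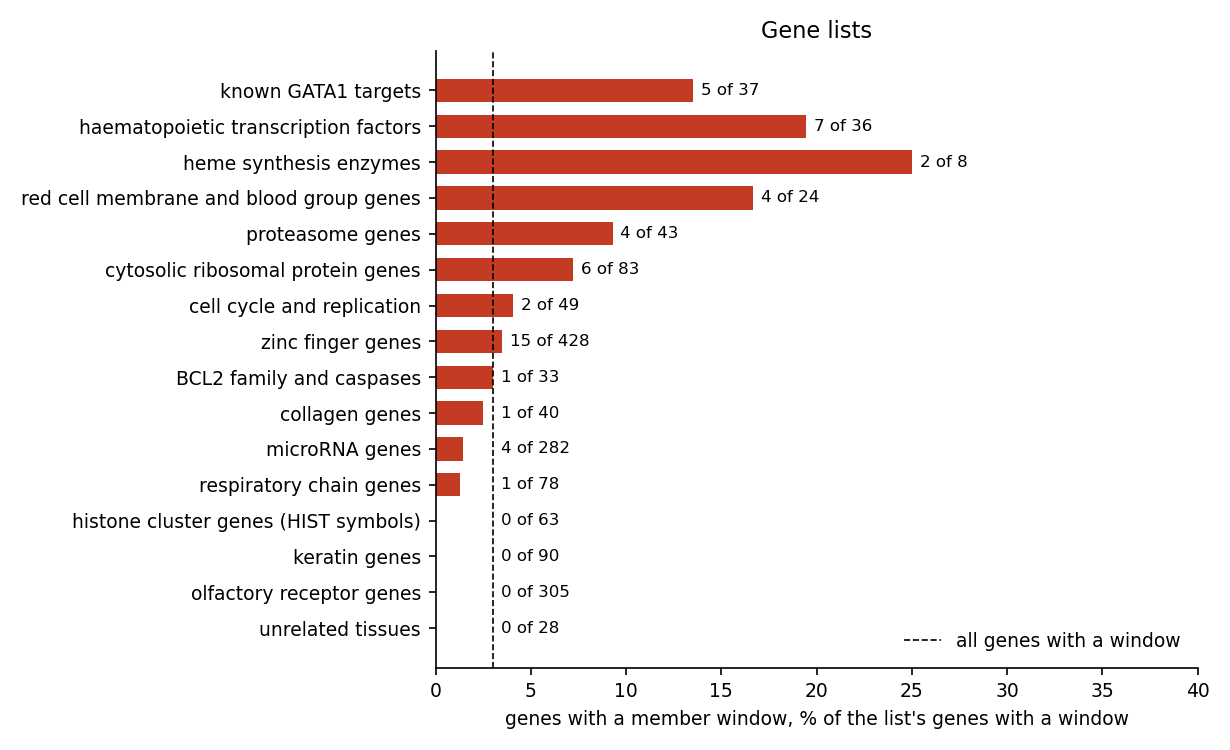
Share of the genes of 16 lists that hold a member window (x axis, % of the list's genes with a window), with counts beside the bars and a dashed line at 3.01%, the share over all genes. Heme enzymes (2 of 8) and haematopoietic transcription factors (7 of 36) have the longest bars of the lists drawn, which leave out those the study singled out, and histone cluster genes (symbols beginning with HIST, so without the variant genes H3F3B and H2AFV, which had member regions), keratin, olfactory receptor and unrelated tissue genes have none.

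Of 36 haematopoietic transcription factor genes 7 held a member window (19.4%, against 3.01% of all genes), and of those with a bright window 20.6%, against 3.73%. Besides GATA1, GATA2, NFE2 and TAL1 these were HOXA9 at 1.92 (at -3296 bp), MEF2C at 1.61 and the ETS factor GABPA at 1.68, where the region is shared with the ATP synthase subunit ATP5J. After loess correction MEF2C (1.34) and GABPA (1.46) fell below 3-fold, whereas HOXA9 (1.83) did not.

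Heme and red cell genes were looked at as lists after members among them had been seen, so their shares are a description. Of 8 enzymes of heme synthesis looked up 2 held a member window (25%), against 3.01% of all genes and 3.73% of genes with a bright window. CPOX, coproporphyrinogen oxidase, had 2 windows, the higher 241 bp upstream with probes at 2.43, 2.29 and 1.60. ALAS1, the housekeeping form of the first enzyme, had 1 window 81 bp upstream with 1.88, 1.48 and 1.55. UROD (1.55) and PPOX (1.44) were just below the limit, and ALAS2, the erythroid form, had 1 bright window at -0.45. Of 24 listed red cell membrane and blood group genes 4 held a member window (16.7%, and 17.4% of those with a bright window, against the same 3.01 and 3.73%). These were FY (ACKR1), the Duffy antigen, with 3 windows and probes at 1.86, 2.00 and 1.72, the glucose transporter SLC2A1 at 1.84, the Kell antigen gene KEL at 1.75, where 1 of the 3 probes was at 0.73, and STOM at 1.65, where 1 was at 0.73. The list is partial, as it leaves out the blood group genes BSG and SEMA7A, which had member regions at 2.03 and 1.71. C10orf137 (EDRF1), a gene of erythroid differentiation, had 4 member windows, with probes at 1.82, 1.93 and 2.94.

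Of 282 microRNA genes with a window 4 held a member window (1.42%, against 3.01% of all genes). Only 142 of the 282 had a bright window, which the rule requires. Within these the share was 2.82%, against 3.73% of all genes with a bright window, a difference that rests on 4 genes. The regions were annotated to hsa-mir-423 (shared with CCDC55, mean 2.13), hsa-mir-335 (1.85), hsa-mir-144 (1.67) and hsa-mir-126 (1.60). The mature sequences of miR-144, made in red cell precursors together with miR-451, and of miR-126, made in endothelium and megakaryocytes, are shown because both are known from blood and vessel cells (RefSeq, GRCh38.p14; capitals mark the seed, bases 2 to 8). They were chosen after their values were seen.
hsa-miR-144-3p: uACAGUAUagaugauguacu
hsa-miR-144-5p: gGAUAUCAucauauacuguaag
hsa-miR-126-3p: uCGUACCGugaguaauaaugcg
hsa-miR-126-5p: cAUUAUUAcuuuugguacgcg
The 8 arms of the 4 microRNAs have 8 different seeds. The miR-144 region had 2 member windows, the higher at -3852 bp from the annotated start, with probes at 1.60, 2.11 and 1.30 and an IgG signal at the rank of 98.6%. The miR-126 region had 2, the higher at -1685 bp, with 1.01, 2.24 and 1.56.

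Housekeeping families gave mixed shares. Members were found in 4 of 43 proteasome genes (9.30%; PSMD5, PSMA5, PSMB10 and PSMB3), in 6 of 83 cytosolic ribosomal protein genes (7.23%; RPL13A, RPL22, RPL9, RPS7, RPL7 and RPL39), in 15 of 428 zinc finger genes (3.50%) and in 1 of 78 listed respiratory chain genes (1.28%; ATP5J). The respiratory chain list was matched by symbol and leaves out CYC1, the cytochrome c1 gene, which had a member region at 1.90. The ribosomal protein windows had means between 1.59 and 1.97, highest at RPL13A. Except at RPS7, each of these ribosomal protein regions also named another gene, as did the PSMB3 region. For these the array cannot tell which gene the signal belongs to. None of the 63 histone genes of the replication-dependent clusters, matched by symbols that begin with HIST, held one. That list leaves out the genes of histone variants, of which H3F3B (2.59) and H2AFV (H2AZ2, 1.97) had member regions. No member window was in any of 90 keratin genes, of which 42 had a bright window, and 1 of 40 collagen genes held one (COL5A1, 1.70). Of 49 listed cell cycle and replication genes 2 held one (4.08%; CENPE and E2F2). Of 33 genes listed under BCL2 family and caspases 1 held one (3.03%; CFLAR). CFLAR encodes a caspase inhibitor, so it is itself neither a BCL2 family gene nor a caspase gene. No other gene of that list held a member window, so its share rests on CFLAR alone. The cell cycle and replication list is partial. Among the genes it leaves out, POLA2 (2.07), INCENP (2.04), CDC45L (2.02, a region shared with UFD1L) and CHAF1A (2.01) had member regions. For the lists as drawn up, shares of 3.03 to 4.08% are close to the 3.01% of all genes.

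Genes that the study itself singled out were also looked up. Of the 5 promoters it checked by PCR, VEGF (VEGFA), the vascular growth factor gene, held a member window, 2059 bp inside the gene, with probes at 2.41, 2.78 and 2.16. RUNX3 (0.83), TNF (0.68) and IGFBP7 (0.10) had lower bright windows, and ANXA5 had no bright window, with a highest window of any brightness at 1.5. The paper reports that regular and real-time PCR bore out its ChIP-on-chip results, whose peaks were called by another method than the rule used here. Of the 45 genes it tabulated, 6 held a member window (13.3%). That list was drawn up from these arrays, so it is not independent of the ratios. CENPE, the kinesin of kinetochores, had 3 windows with 1.89, 2.64 and 2.03 at the top, and CFLAR, an inhibitor of caspase 8, had 2 windows 9565 bp inside the gene with 2.08, 2.06 and 1.93. The others had means of 1.77 at TPR, a nuclear pore protein, 1.70 at the angiopoietin receptor TEK, 1.67 at PPP2R3B and 1.64 at DCLRE1A, a repair nuclease. Of genes it lists as lower after GATA1 knockdown in Meg-01 clones 36 of 746 held a member window (4.83%), and of those listed as higher 33 of 921 (3.58%), against 3.01% of all genes. Within genes with a bright window the shares were 5.54 and 4.52%, against 3.73%.

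Genes with a member window had a median of 23 windows, as did all genes, but a median of 9 bright windows, against 6 in all genes with any. Genes with a bright window toward IgG numbered 104 (0.595%), and 1 gene held both kinds.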

How the data were processed

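The authors hybridised GATA1 and IgG precipitates of Meg-01 chromatin to 2 Agilent promoter arrays and deposited scanner output from Feature Extraction 9.5.3.1, whose processed intensity values are spatially detrended and dye-normalized per the file headers. The deposited log10 ratios of red over green equal those signals' ratio and were an alternative here. The deposited p-values come from the software's error model within 1 array and were not used. The study's own peak calls, made with intra-array and median normalization, are not used here.

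Control spots, spots flagged as non-uniform and probes whose 2 signals both failed the software's background test were removed, which kept 237004 of 237210 and 236864 of 237201 genomic probes. Log2 ratios were centred on each array's median with no loess, in Python 3.11.15 (pandas 2.3.3, numpy 2.4.6). Intervals are exact binomial (scipy 1.17.1). Loess and normexp (offset 50) alternatives used R 4.3.3 and limma 3.58.1. The window step was tested on simulated data.

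Genes were named from the accessions on the arrays, updated through RefSeq for 499 of 527 member genes. The genome build of the array coordinates is not given in the sources used here. The files hold no probe sequences, so letters and GC content, planned for the probes, were read in RefSeq promoters of the first listed start of each gene. Named regions are the 20 with the highest window among those with at least 2, the 5 with most windows, the 5 brightest, those at listed genes and the windows beside the limit, and regions named beyond these were chosen after their values were seen. The members and lists were chosen with earlier results of these data known. Some genes are not reported here.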

Additional observations from a re-analysis of the deposited data

How the results depend on the processing

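No paired analysis was possible because no probe was hybridised a second time. Of the 472 regions, 354 overlapped a member under normexp correction, 324 after loess on intensity, 469 with the deposited log10 ratios, 463 with both channels well above background and 472 without the probe filter. Loess left 448 windows and 2 known targets, and normexp left 12 bright windows toward IgG and put 61.9% of members within 500 bp of a start. At 2-fold there were 6433 windows, 3109 regions, 3351 genes and 17 known targets, beside 1901 windows toward IgG. At 4-fold these were 108, 80, 85, 0 and 10. The brightest 10% gave 372 windows, 239 regions and 274 genes, with 11 windows toward IgG and 64.5% of members at a start. Widening to the brightest 50% gave 1524 windows, 988 regions and 1057 genes, with 1004 toward IgG and 42.0% at a start. Brightness by IgG alone gave 281 windows, 183 regions, 213 genes and 3 known targets, beside 1324 windows toward IgG, which turned the balance of the sides, with 65.5% at a start. Brightness by uncorrected signals put 51.3% at a start. Windows of 5 probes gave 215 windows, 121 regions, 135 genes and 0 known targets, with 18 toward IgG and the GATA letters in 23.3% of promoters. GC content moved by less than 1 SD under each alternative run, and other values kept within 1.5 times the main count or within its interval. The causes were not tested. The single hybridisation per probe limits every value, since neither a replicate nor a dye swap was analysed here.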
